A study of Mus musculus with 8 samples.

Results

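The 38 genes described here are cell cycle genes: enzymes and loading factors of DNA replication, the kinases and cyclins of mitotic entry, proteins of the spindle and the kinetochore, the spindle checkpoint with the enzymes of mitotic exit, the G1 cyclins Ccnd1 and Ccnd3, and the microtubule and chromatin proteins Stmn1 and Hmgb2. They were taken by gene symbol from the 32285 genes of the count matrix, and all 38 were present. The last 4 named genes are also made by cells that do not divide, and the other 34 are called core genes below. Some core genes, Pcna and Kif23 among them, were also found mostly in cells with no other core gene. Transcripts of all 38 genes were counted cell by cell in droplets (3′ chemistry of 10x Genomics) in CD45+ CD11b+ cells sorted from the heart and the blood of 4 mice. Every mouse was a recipient of the genotype Mx1Cre:c-Mybfl/fl, in which an inducible Cre can delete c-Myb, a gene that blood stem cells need, and each had received marrow, from a control donor in 2 mice (control replicates 1 and 2) or from a donor with stroke in 2 mice (stroke replicates 1 and 2). The sources used here give no age for the mice, no time after transplantation and no measure of the host cells that remained. Heart and blood cells of a mouse carried different hashtag antibodies and shared 1 library, so that organs were compared within a library and donor groups between libraries. The question the design poses is whether marrow from stroke donors gives rise to different heart and blood leukocytes. Here it is asked of the cell cycle genes: which cells hold their transcripts, in which organ, and with which marrow.

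After filters, 9664 cells were kept, 4912 from heart and 4752 from blood. The libraries held between 10067873 and 16513840 gene UMIs (unique molecular identifiers, counts of captured transcripts), with a median of 4005 to 4689 per barcode, and any pair of libraries shared 1 to 5 barcode sequences. A pair of libraries stood apart. In control replicate 1 Ddx3y, a gene of the Y chromosome, had 599 UMIs and Xist, of the inactive X, had 1, whereas the other 3 libraries had 1 to 3 and 6472 to 13794. Blood of stroke replicate 2 held 1000 B cell-like cells among 1305, against 122, 60 and 89 in control replicates 1 and 2 and stroke replicate 1. Transcripts of the sorted proteins were not found in every kept cell. Of the kept cells 1811 were B cell-like, of which 26.6% had a UMI of Itgam, the gene of CD11b. A further 143 were endothelial-like, of which 1.4% had a UMI of Ptprc, the gene of CD45. A missing UMI does not show that the protein was absent. Among heart macrophage-like cells 83.6% had a UMI of Ptprc and 53.7% one of Itgam. Classes were named from clusters made without the cell cycle genes.

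A dividing cell copies its DNA in S phase and separates the copies in mitosis. In G1, D-type cyclins with their kinases release E2F transcription factors, which switch on the replication genes, and later a complex of MuvB proteins with B-Myb and FoxM1 switches on the mitotic genes. Neutrophils and monocytes in blood are descendants of dividing marrow cells and have left the cycle themselves, whereas macrophages that live in the heart can renew by local division, and lymphocytes divide when activated.

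Regulators of these pathways bind short motifs in promoters, and RefSeq promoter sequence (build GRCm38.p6, 250 bases before to 50 after the start) was found for 31 of the 38 genes. On both strands 3 motifs were searched: the CCAAT box (CCAAT), the cell cycle homology region or CHR (TTTGAA) to which the MuvB complex binds, and E2F sites in 4 spellings (TTTCCCGC, TTTGGCGC, TTTGCCGC and TTTCGCGC, some of which overlap each other where they occur). The promoters of 6 genes follow, because they show the arrangement of the mitotic and of the replication genes, and one with both mitotic motifs whose transcripts were mostly outside cells with other cycle genes. They are those of Ccnb2 (chr9:70421505-70421804, minus strand), Top2a (chr11:99024140-99024439, minus), Mki67 (chr7:135716330-135716629, minus), Kif23 (chr9:61946750-61947049, minus), Mcm5 (chr8:75109259-75109558, plus) and Mcm6 (chr1:128359656-128359955, minus). Each is written 5′ to 3′ along the gene, with motif letters in capitals.
Ccnb2: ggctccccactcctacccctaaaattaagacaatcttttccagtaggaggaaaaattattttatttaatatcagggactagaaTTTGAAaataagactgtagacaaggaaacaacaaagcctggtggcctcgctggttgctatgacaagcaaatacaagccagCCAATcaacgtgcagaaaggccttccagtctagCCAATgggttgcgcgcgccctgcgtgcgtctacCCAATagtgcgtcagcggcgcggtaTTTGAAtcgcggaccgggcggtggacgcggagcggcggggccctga
Top2a: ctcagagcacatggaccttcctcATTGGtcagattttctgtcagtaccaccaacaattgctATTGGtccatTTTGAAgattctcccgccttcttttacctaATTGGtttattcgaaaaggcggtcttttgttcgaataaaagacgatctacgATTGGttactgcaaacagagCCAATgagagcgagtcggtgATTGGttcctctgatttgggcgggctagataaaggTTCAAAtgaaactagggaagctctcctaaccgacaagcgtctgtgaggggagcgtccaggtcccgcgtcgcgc
Mki67: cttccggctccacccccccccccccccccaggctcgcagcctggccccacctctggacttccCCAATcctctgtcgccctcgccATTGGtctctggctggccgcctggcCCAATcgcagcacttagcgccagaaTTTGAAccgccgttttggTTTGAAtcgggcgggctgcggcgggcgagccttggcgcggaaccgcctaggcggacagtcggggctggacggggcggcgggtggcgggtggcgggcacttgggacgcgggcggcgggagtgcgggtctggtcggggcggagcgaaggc
Kif23: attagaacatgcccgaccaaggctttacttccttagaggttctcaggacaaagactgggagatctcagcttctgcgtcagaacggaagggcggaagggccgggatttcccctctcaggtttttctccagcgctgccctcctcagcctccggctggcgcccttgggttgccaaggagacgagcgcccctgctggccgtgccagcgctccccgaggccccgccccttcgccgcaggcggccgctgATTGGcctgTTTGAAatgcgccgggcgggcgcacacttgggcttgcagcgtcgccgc
Mcm5: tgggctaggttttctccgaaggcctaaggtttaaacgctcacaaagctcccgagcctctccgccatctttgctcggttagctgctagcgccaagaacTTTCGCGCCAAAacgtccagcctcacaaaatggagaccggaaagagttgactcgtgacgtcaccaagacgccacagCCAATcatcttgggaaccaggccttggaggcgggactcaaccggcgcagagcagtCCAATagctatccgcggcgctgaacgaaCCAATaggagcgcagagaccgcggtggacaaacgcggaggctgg
Mcm6: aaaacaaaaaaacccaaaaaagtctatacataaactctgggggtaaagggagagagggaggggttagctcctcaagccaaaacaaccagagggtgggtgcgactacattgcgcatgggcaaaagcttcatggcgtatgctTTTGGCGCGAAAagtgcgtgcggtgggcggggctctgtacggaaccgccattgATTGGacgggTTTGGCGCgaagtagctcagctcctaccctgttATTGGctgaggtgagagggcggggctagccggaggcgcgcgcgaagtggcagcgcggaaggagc
The Ccnb2, Top2a and Mki67 promoters each held 2 CHR letters, beside 3, 6 and 3 CCAAT boxes and 0 E2F sites. The Mcm5 and Mcm6 promoters held 2 and 3 E2F sites, beside 3 and 2 CCAAT boxes and 0 CHR letters. Over the members, a CCAAT box occurred in 25 of 31 promoters (80.6%) against 37.9% of all 27025 promoters in the table, CHR letters in 15 (48.4%) against 18.1%, and an E2F spelling in 5 (16.1%) against 2.3%. The roles differed: CHR letters stood in 13 of 18 promoters of mitotic core genes (72.2%) and in 1 of 11 of replication genes (9.1%), while E2F spellings stood in 1 of 18 (5.6%) and 4 of 11 (36.4%). These are counts of letters, not of bound sites.

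The members were spread very unevenly over cells, in a way that followed their roles. Counts of 3′ UMIs were not scaled by transcript length, so they are compared within a gene and not as levels between genes. Positions are those of GRCm38. Among the replication genes, Pcna, the sliding clamp of DNA polymerase (chr2:132249162-132253314), had 2147 UMIs in 1660 cells, and the helicase subunits Mcm6 and Mcm3 had 983 in 727 cells and 967 in 701 cells. Among the regulators of mitotic entry, Cdca8 and Birc5, both of the chromosomal passenger complex, had 322 UMIs in 187 cells and 251 in 69 cells, and Ccnb2, a B-type cyclin, had 206 in 113 cells. Of the structural genes, the proliferation antigen Mki67 (chr7:135689784-135716361) had 920 UMIs in 350 cells and the topoisomerase Top2a (chr11:98992943-99024189) 904 in 268 cells. The fewest were found for the checkpoint kinase Bub1 (42 UMIs), the kinase Plk1 (45) and cyclin B1, Ccnb1 (50). At the other end, the G1 cyclin Ccnd3 (chr17:47505051-47599691) had 26872 UMIs in 7674 cells, Hmgb2, a DNA-bending chromatin protein, 15991 in 5867 cells, and Ccnd1 (chr7:144929931-144939925) 3835 in 1399 cells.

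To see how far a gene's transcripts stood in the same cells as those of the other cycle genes, each cell was thinned at random to 1500 UMIs (733 shallower cells were left out, 8931 stayed), and for each member the share of its UMIs in cells with at least 3 other core genes was taken. For Ccna2 and Ccnb1, the cyclins of S phase exit and mitosis, that share was 100%, on 13 and 7 thinned UMIs. It was 90.9% for Birc5, 90% for Bub1, 67.8% for the kinetochore gene Cenpf, 65.2% each for the spindle genes Nusap1 and Tpx2, 52.6% for Top2a and 39.5% for Mki67. Most replication genes stood lower: 12.8% for Mcm5, 10.5% for Mcm3, 9.43% for Mcm6 and 4.18% for Pcna. Most Pcna transcripts were thus in cells with fewer than 3 other core genes at this depth. Of the thinned cells with Pcna, 73.4% had no other core gene, though thinning itself removes transcripts. The split by role was not clean: among replication genes Rrm2, the small subunit of ribonucleotide reductase, reached 57.1%, the thymidine kinase Tk1 21.7%, the cyclin Ccne2 20.8% and Tyms 19.4%, while the mitotic kinases Aurka and Aurkb stood at 13.3 and 25%. In all, 23 members reached 20% and 5 stayed under 5%, namely Pcna, Kif23, Hmgb2, Ccnd1 (2.48%) and Ccnd3 (0.66%). In pairs of genes, of 69 cells with a Birc5 UMI in the unthinned counts, 71% also had Mki67 and 65.2% Top2a, whereas of 1017 cells with a Kif23 UMI 7.18% had Mki67, 5.7% Top2a and 3.83% Birc5. Across all cells without the first gene, those shares were 3.14% and 2.32% for Birc5 and 3.2%, 2.43% and 0.35% for Kif23, and 39 of the 69 Birc5 cells held Kif23.

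**Figure D1:**
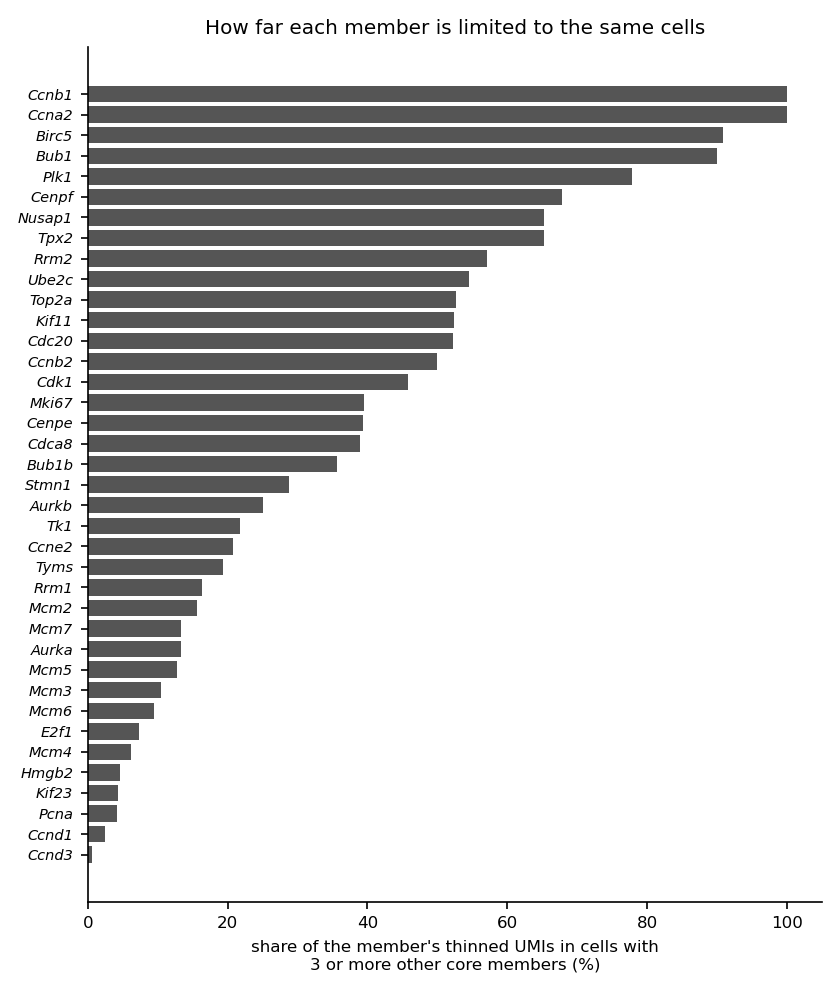
Share of each member's UMIs, after thinning to 1500 UMIs per cell, that lay in cells with 3 or more other core genes (x axis, %), 1 bar per gene, over all kept cells of both organs. The mitotic cyclins Ccnb1 and Ccna2 are at 100%, Mki67 is at 39.5%, and Pcna, Kif23, Ccnd1 and Ccnd3 are under 5%.

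Kif23 (chr9:61915905-61946774), a kinesin that builds the midzone of the dividing cell, parted from the other spindle genes by cell class. Of its 1382 UMIs, 46.2% were in neutrophil-like cells, which held 0.11% of Top2a and 4.46% of Mki67 UMIs. In CPM (the gene's share of all UMIs of a class, scaled in the usual way of that unit and pooled over the 4 mice), Kif23 stood at 237 in blood and 122 in heart neutrophil-like cells, 48.6 in an unnamed heart cluster, 30.4 in heart nonclassical monocyte-like cells, 21.4 in heart macrophage-like cells and 7.64 in blood B cell-like cells. A Kif23 UMI was found in 32.7% of blood neutrophil-like cells (95% interval 29.9 to 35.6%, Clopper-Pearson, counting error only) against 2.68% (1.86 to 3.72%) of blood B cell-like cells, although the former were the shallower, at a median of 1996.5 UMIs against 5747 in the cells deep enough to thin. Its promoter, printed above, held 1 CCAAT box and 1 CHR.

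The G1 cyclins split the classes in opposite ways. Ccnd1 was largely a gene of the heart: 90.5% of its UMIs were in heart cells, at 533 CPM in endothelial-like, 318 in dendritic cell-like, 240 in macrophage-like and 39 in classical monocyte-like cells, and at 1.64 to 10.8 in heart neutrophil-like, nonclassical monocyte-like, B cell-like and NK cell-like cells. In blood only dendritic cell-like cells came near those levels, at 213 CPM, while the other blood classes of over 50 cells lay between 0.922 and 11.9. Within heart macrophage-like cells the 4 mice stood at 274 and 216 CPM with control marrow and 271 and 215 with stroke marrow, so each group held a higher and a lower mouse. Ccnd3, the D-type cyclin of most blood cells, was present in all classes and highest in neutrophil-like cells, at 1468 CPM in blood and 1056 in heart, against 374 in heart macrophage-like and 156 in endothelial-like cells. Hmgb2 was high in the same class, with 1378 and 1015 CPM in blood and heart neutrophil-like cells and 176 in macrophage-like cells.

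Among classes of at least 50 cells, the pooled levels of the mitotic genes Top2a and Mki67 were highest in heart dendritic cell-like and B cell-like cells, the latter through 1 library. Top2a stood at 61.5 CPM in heart B cell-like and 56.7 in heart dendritic cell-like cells, against 31.5 in blood B cell-like, 12.9 in heart macrophage-like and 8.94 in heart classical monocyte-like cells, with 0 UMIs in heart and 1 in blood neutrophil-like cells. By mouse, heart B cell-like cells were at 133, 41.9, 26 and 20.4 CPM of Top2a, and without control replicate 1, a setting chosen after the values had been seen, the pooled level was 31.1, level with blood B cell-like cells at 31.4. Mki67 stood at 50.3 CPM in heart dendritic cell-like, 34.4 in heart B cell-like and 25 in macrophage-like cells, and at 11.6 and 14 in blood and heart neutrophil-like cells, a class that has left the cycle. Heart B cell-like cells were at 87.9, 17.5, 4.72 and 8.39 CPM of Mki67 by mouse and at 11.8 without control replicate 1, which is near the 10.3 and 6.41 of heart and blood neutrophil-like cells without that mouse and under the 24.1 of macrophage-like cells. Heart dendritic cell-like cells stood at 54.1 without it. The monocyte-like classes were at 11.2 and 8.82 CPM in blood and 8.47 and 8.11 in heart (classical and nonclassical), near the neutrophil-like level. Without control replicate 2 the blood classical level was 4.68, beside 12.8 in blood neutrophil-like cells. Stmn1, which destabilises microtubules, was at 60.4 CPM in heart macrophage-like, 86.9 in heart dendritic cell-like and 98.3 in blood NK cell-like cells, against 1.93 to 8.47 in neutrophil-like and classical monocyte-like cells of both organs and blood nonclassical ones. Pcna ranged from 50.8 to 68.3 CPM in the heart monocyte-like, macrophage-like, dendritic cell-like, B cell-like and NK cell-like classes and was 22.2 in heart and 5.31 in blood neutrophil-like cells. Classes were set against each other here as a description, with no test, since they come from clusters of the same cells.

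**Figure D2:**
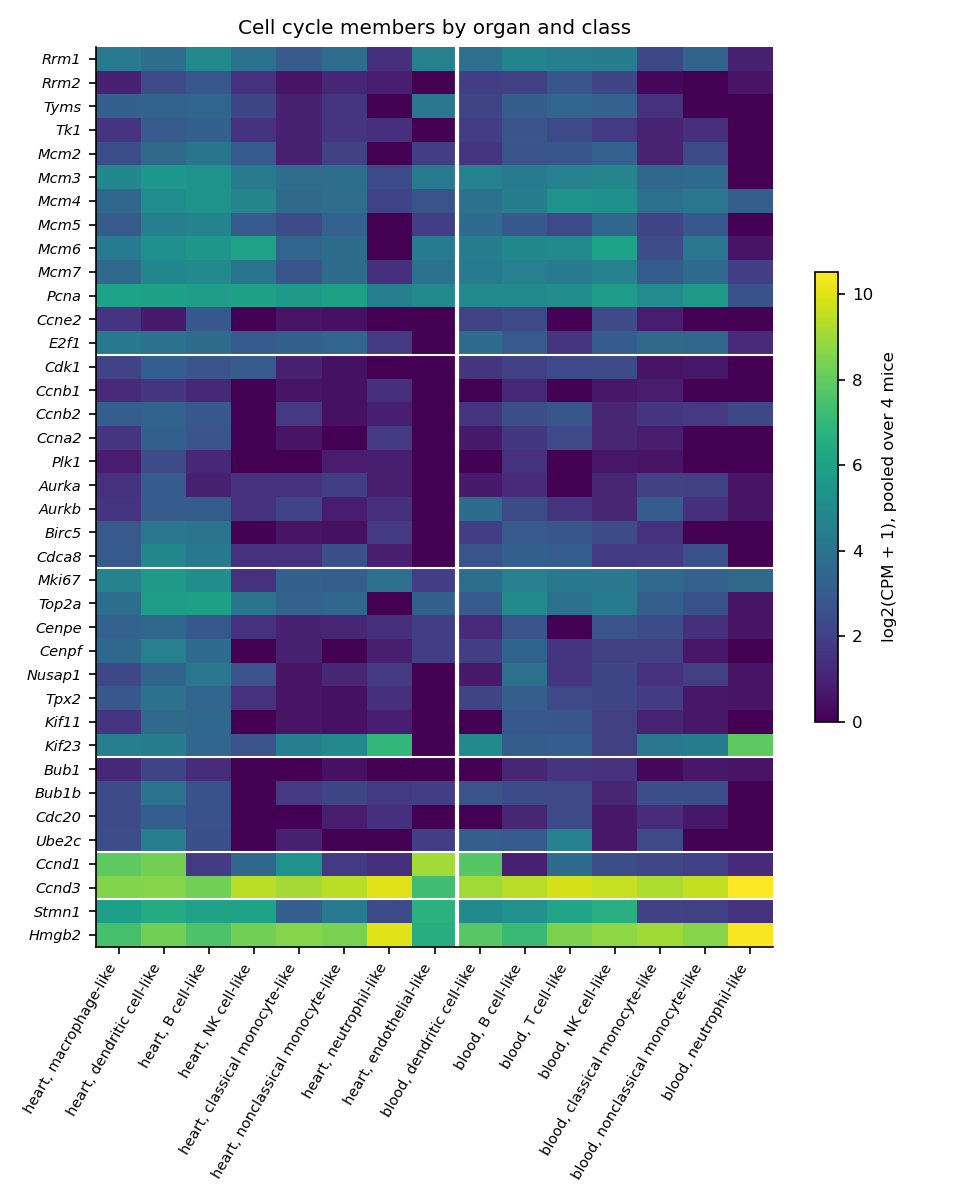
Level of each of the 38 genes (rows, grouped by role between white lines) in each named class of at least 50 cells in an organ (columns, heart left and blood right of the white bar) as log2 of CPM plus 1, pooled over 4 mice. Among these columns Top2a and Mki67 are brightest in heart dendritic cell-like and B cell-like cells, the B cell-like column through control replicate 1, while Kif23 is brightest in neutrophil-like cells, and Ccnd1 is bright in heart macrophage-like, endothelial-like and both dendritic cell-like columns.

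Cells were then counted rather than transcripts. A cell was taken as carrying several cycle transcripts when at least 3 of the 34 core genes had a UMI after thinning, and 117 of 8931 deep cells did (1.31%). Pcna and Kif23 count towards the 3, although 73.4% and 84.4% of the thinned cells that held them had no other core gene. The count is a range on a score, not a cell type: in heart 156 cells had 2 core genes, 28 had 3, 12 had 4, and the highest had 14, and in blood 116 had 2, 17 had 3 and the highest had 13. In the heart, such cells numbered 19 of 648 in control replicate 1 (2.93%), 23 of 1318 in control replicate 2 (1.75%), 19 of 1432 in stroke replicate 1 (1.33%) and 19 of 1177 in stroke replicate 2 (1.61%). In blood they numbered 7 of 994 (0.704%), 6 of 889 (0.675%), 10 of 1243 (0.805%) and 14 of 1230 (1.14%), in the same order. The heart share exceeded the blood share in all 4 mice, at 1.91% ± 0.707 (SD, n = 4 mice) against 0.83% ± 0.213, a difference of 1.07 percentage points (exact two-sided sign-flip permutation test over 4 mice, p = 0.125, the smallest that 4 mice allow). Without thinning, the shares were 13.9, 9.04, 8.77 and 9.98% in heart and 4.05, 4.05, 4.73 and 8.66% in blood.

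Donor marrow did not separate the mice beyond what 2 against 2 can show. Heart shares were 2.34% ± 0.839 (SD, n = 2 mice) with control and 1.47% ± 0.203 with stroke marrow, and although both control mice lay above both stroke mice, the exact two-sided permutation test gave p = 0.333, the smallest this design allows. In 7 of 8 other settings the groups overlapped, as with at least 2 core genes, where the shares were 6.48 and 4.4% against 5.03 and 5.44%. The difference of -0.868 percentage points became -0.208 with 2 core genes, -0.51 with thinning to 1000 UMIs, -0.275 without control replicate 1 and -1.46 without control replicate 2. Blood shares were 0.69% ± 0.021 with control and 0.971% ± 0.236 with stroke marrow (difference 0.282 percentage points, exact permutation p = 0.333), and without stroke replicate 1 or 2 the difference was 0.449 or 0.115.

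**Figure D3:**
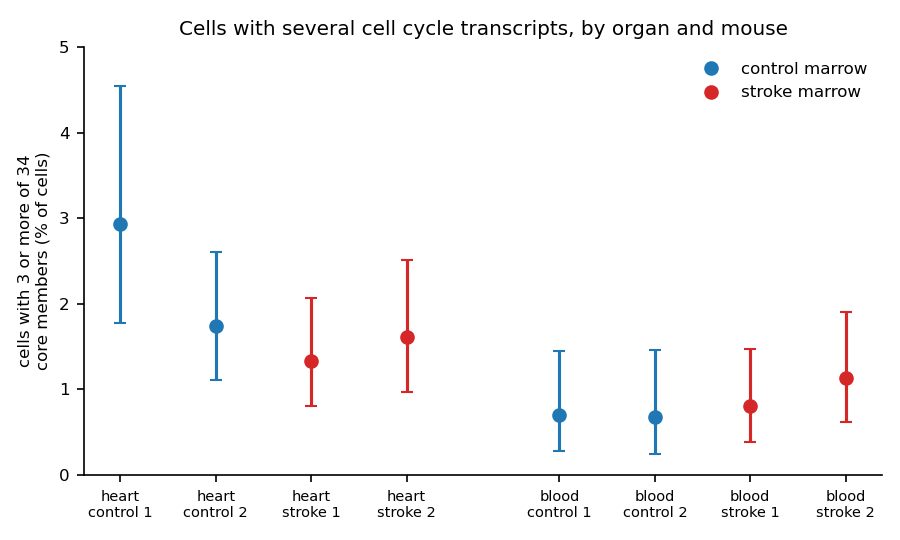
Share of cells with 3 or more of the 34 core genes after thinning (y axis, %) in heart and blood of each mouse, with exact 95% binomial intervals that cover counting error only. Heart of control replicate 1 is highest at 2.93%, and each heart lies above the blood of the same mouse, which reached at most 1.14%.

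The largest class among the heart cells with several cycle transcripts was macrophage-like. It gave 38 of the 80, which is 47.5%, out of 1959 deep macrophage-like cells (1.94%, 95% interval 1.38 to 2.65%), with 3, 10, 14 and 11 in control replicates 1 and 2 and stroke replicates 1 and 2. That share was 23.8% when the cycle genes were kept in the clustering, which was tried after the data had been seen. B cell-like cells gave 20 of 532 (3.76%), as 8 of 141, 6 of 178, 3 of 62 and 3 of 151 in the 4 mice, while dendritic cell-like cells gave 12 of 185 (6.49%, interval 3.4 to 11.1%), as 5, 3, 2 and 2. The monocyte-like and neutrophil-like classes of the heart gave few: 3 of 326 classical, 1 of 679 nonclassical and 1 of 412 neutrophil-like cells. The last 5 were 3 T cell-like cells, of just 14 deep ones (21.4%, interval 4.66 to 50.8%), and 2 unnamed cells, of 140. No heart NK cell-like cell qualified among 162, which allows a share of up to 1.85% (3 cells of the total, the limit used for every count of 0, where the exact interval ends at 2.25%). Macrophage-like cells made up 15.8, 43.5, 73.7 and 57.9% of the qualifying heart cells in the 4 mice and B cell-like cells 42.1, 26.1, 15.8 and 15.8%. The share of macrophage-like cells that qualified was 1.59, 1.78, 2.07 and 2.07% in the same order, and control replicate 1 had 189 deep macrophage-like cells among 648.

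In blood most qualifying cells were lymphoid. Of 37, 18 were B cell-like (of 1209, 1.49%) and 11 NK cell-like (of 472, 2.33%), and 13 of the 18 came from stroke replicate 2, the library with the many B cell-like cells, where 13 of 948 qualified (1.37%) against 2 of 117, 1 of 59 and 2 of 85 in the other mice. The 11 NK cell-like cells came from all 4 mice, as 1, 3, 6 and 1. A further 2 were T cell-like (of 73, 2.74%, interval 0.334 to 9.55%). The 3 dendritic cell-like cells were all from control replicate 1. None of 842 neutrophil-like and none of 465 nonclassical monocyte-like blood cells qualified, which allows shares of up to 0.356% and 0.645%, and 3 of 1061 classical monocyte-like cells did (0.283%). Qualifying cells were deep before thinning: a median of 12537.5 UMIs in blood and 13894 in heart B cell-like cells against 5747 and 5505.5 in all deep cells of those classes, and 5767 against 4810 in macrophage-like cells. The part of depth in the counts was not tested beyond the thinning.

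Most qualifying cells held genes of both phases. Among the 80 heart cells, 50 had replication and mitotic genes, 19 mitotic genes alone and 11 replication genes alone. Among the 37 blood cells the counts were 24, 4 and 9. Macrophage-like cells were split 21, 12 and 5, and blood NK cell-like cells stood on the replication side, with 5 holding both, 0 mitotic genes alone and 6 replication genes alone. These splits depend on the call: 28 of the heart cells, 17 of the blood cells and 8 of the blood NK cell-like cells held just 3 core genes. A single gene such as Pcna or Kif23 is enough to add a phase.

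The 38 qualifying macrophage-like cells were set beside the 1396 macrophage-like cells with no core gene, at the same thinned depth. Transcripts of long-lived resident macrophages were found in fewer of them: Lyve1 in 8 of 38 (21.1%) against 40.9%, Folr2 in 8 (21.1%) against 43.1% and Timd4 in 1 (2.63%) against 16.3%. Ccr2, the receptor that brings monocytes out of the marrow, was found in 6 (15.8%) against 5.8%. The Lyve1 share was the lower one in all 4 mice, at 0, 30, 21.4 and 18.2% against 39.2, 40.6, 41.5 and 41.1%, and the Ccr2 share the higher one in all 4, at 33.3, 10, 14.3 and 18.2% against 8.39, 5.2, 4.5 and 7.22%. These shares rest on 3, 10, 14 and 11 qualifying cells, control replicate 1 with 3 had too few for the planned comparison within mice, and no test was made. The matrix also counts 2 fluorescent protein transcripts with no origin stated in the labels. A UMI of either was found in 3 of the 38 (7.89%) and in 7.81% of cells with no core gene, against 89.6% of heart classical monocyte-like, 82.2% of heart dendritic cell-like and 5.64% of heart B cell-like cells.

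Heart and blood were next compared by UMIs summed over all cells of an organ in each mouse, with the mouse as a block, by edgeR's quasi-likelihood test with Benjamini-Hochberg adjustment over 12071 genes. In such sums, fewer cells of a type and less RNA per cell cannot be told apart. Of the 38 members, 33 passed the low-count filter, and 6 of these differed, 5 higher and 1 lower in heart, where 15.2% of all genes tested differed, 10.4% higher and 4.87% lower. The median member stood at 0.67 on the log2 scale, with 29 of 33 above 0, beside -0.02 over all genes. CPM here and below are the fit's, on the total of the organ (or class) in a mouse after the filter and TMM scaling.

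Ccnd1 stood at 138, 135, 184 and 129 CPM in heart (control replicates 1 and 2, stroke replicates 1 and 2) and 24.2, 31.8, 14 and 6.7 in blood. The organs did not overlap, and the log2 difference was 3.12 ± 0.42 (SE), adjusted p = 0.00923. Pcna stood at 74, 56.6, 60.9 and 63.1 CPM in heart and 34.5, 32, 37.6 and 26.9 in blood, again without overlap, with a log2 difference of 0.96 ± 0.13 and adjusted p = 0.0101. Stmn1 stood at 69.5, 58.3, 48.3 and 47.3 in heart and 30.5, 19.3, 28.3 and 26.4 in blood (log2 difference 1.09 ± 0.17, adjusted p = 0.0147). Of the helicase genes, Mcm3 was at 36, 29.4, 22.6 and 25.2 CPM in heart and 18.7, 12.5, 12.1 and 17.7 in blood (0.89 ± 0.16, adjusted p = 0.0216). Mcm5 was at 20.4, 11.3, 7.77 and 9.19 in heart and 7.24, 4.25, 5.42 and 5.17 in blood (1.06 ± 0.24, adjusted p = 0.0405). For both, heart was the higher organ in each of the 4 mice, and control replicate 1 gave the highest heart value. Ccnd3 went the other way, at 366, 436, 460 and 600 CPM in heart and 770.5, 673.5, 740 and 759 in blood (-0.68 ± 0.17, adjusted p = 0.0494), lower in heart in 4 of 4 mice.

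The mitotic genes leaned towards heart without passing the test. Mki67 was at 47.8, 24.2, 17.6 and 18.5 CPM in heart and 14.3, 16.8, 17.1 and 15.9 in blood (log2 difference 0.62 ± 0.31, adjusted p = 0.234), so that the distance was mainly that of control replicate 1. Top2a was at 59.4, 23.6, 9.57 and 17.2 in heart and 10.1, 14.3, 18 and 20.4 in blood, higher in heart in the control mice and lower in the stroke mice (0.49 ± 0.59, adjusted p = 0.611). Birc5 was higher in heart in all 4 mice, at 19.4, 5.98, 4.16 and 5.1 against 2.85, 3.75, 2.97 and 4.47 (1.00 ± 0.48, adjusted p = 0.222). Cdca8 was at 20.1, 8.73, 6.66 and 5.44 in heart and 4.17, 4.25, 4.37 and 6.56 in blood, and Ccnb2 at 5.79, 5.5, 6.52 and 5.44 and 1.1, 5.5, 3.67 and 3.07. Kif23 lay lower in heart in 3 mice, at 25.9, 21.2, 29.5 and 32.2 against 51.8, 41.3, 47.9 and 9.91, the last value being that of the blood rich in B cell-like cells (adjusted p = 0.72). Hmgb2 showed the same mouse out of step, at 318, 296, 279 and 281 in heart and 503, 627, 559 and 172 in blood (adjusted p = 0.338). Among the exit genes, Cdc20, the activator of the anaphase-promoting complex, was at 5.04, 3.23, 3.33 and 2.89 in heart and 0.878, 2.5, 0.175 and 1.12 in blood (adjusted p = 0.106), and its partner Ube2c at 8.06, 2.91, 4.02 and 4.93 against 1.54, 8, 5.42 and 4.61, with overlap. Bub1b, a checkpoint kinase, was at 9.82, 3.07, 3.88 and 4.25 against 5.27, 4.25, 2.97 and 3.49. Mcm6 and Mcm4 did not differ either, with adjusted p = 0.38 and 0.998.

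The count of 6 leaned on single libraries. It was 1 without control replicate 1 or without control replicate 2 (Ccnd1 both times), 0 without stroke replicate 1, and 16 without stroke replicate 2. The share of all genes called in these refits is not given here. With B cell-like cells left out of both organs, an alternative chosen after the data had been seen, 18 of 31 members differed, 16 of them higher in heart, where 41.3% of all genes tested did. Mki67 was then at 35.4, 25.8, 18.4 and 20.4 CPM in heart against 13.4, 18, 7.74 and 11 in blood (log2 difference 1.01 ± 0.18, adjusted p = 0.00369), Top2a at 36.1, 20.1, 8.54 and 16.8 against 6.45, 15.3, 4.64 and 6.59 (1.23 ± 0.33, adjusted p = 0.0208) and Birc5 at 13.8, 6.44, 4.13 and 4.4 against 1.61, 4.09, 0.581 and 1.47 (1.92 ± 0.46, adjusted p = 0.0125). Each of these was higher in heart in every mouse.

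**Figure D4:**
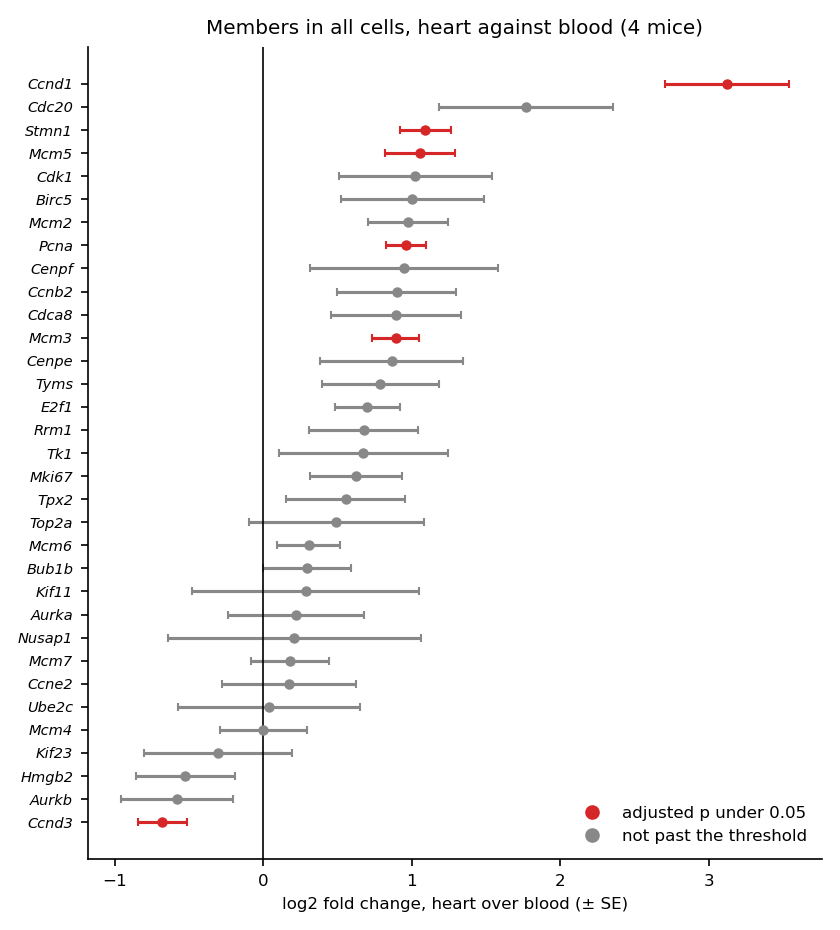
Log2 difference of each tested member between heart and blood sums of all cells (x axis, positive means higher in heart), with SE over 4 mice and the mouse as a block. Red points passed an adjusted p of 0.05: Ccnd1 is farthest right at 3.12, and Ccnd3 is the one red point left of 0, at -0.68.

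Within classes, 10 member and class pairs differed between heart and blood over 6 classes. A class could hold several clusters, in unlike parts by organ. The B cell-like clusters held 345, 169 and 26 heart cells and 606, 367 and 298 blood cells. The main blood cluster of classical monocyte-like cells held 1061 blood and 25 heart cells. The part of this make-up in the differences was not tested. In dendritic cell-like cells 4 of 9 tested members rose in heart (6.65% of all genes differed). Mki67 was at 50.8, 23.7, 81.1 and 105.3 CPM in heart and 29.2, 4.47, 8.56 and 10.4 in blood, higher in heart in all 4 mice (2.06 ± 0.44, adjusted p = 0.0109). Pcna was at 76.2, 52.7, 86.1 and 80.2 against 46.2, 24.6, 22.8 and 36.3 (1.15 ± 0.29, adjusted p = 0.0311). Stmn1 and Hmgb2 rose as well, by 1.66 and 0.69 on the log2 scale with adjusted p = 0.0261 and 0.0299, though Stmn1 was level in control replicate 1, at 50.8 in heart and 51.1 in blood. In B cell-like cells 3 of 12 differed (10.3% of all genes): Mcm5 was at 42.8, 20.2, 30.7 and 16.5 in heart and 22.4, 3.62, 6.35 and 4.48 in blood, where control replicate 1 reached the heart range although heart was the higher organ in every mouse (1.57 ± 0.34, adjusted p = 0.00374). Mcm4 rose by 0.84 (adjusted p = 0.0265), and Ccnd3 fell by 0.76, from 650, 460, 455 and 719 in blood to 243, 284, 404 and 443 in heart, without overlap. Mki67 and Top2a were not called in this class. Both were higher in heart in the 2 control mice and lower in the 2 stroke mice, at 5.11 in heart against 123 in blood for Mki67 in stroke replicate 1 (89 blood cells) and 8.89 against 16.4 in stroke replicate 2. In classical monocyte-like cells 2 of 4 differed (20.9% of all genes): Pcna was at 69.5, 57.2, 52.1 and 48.4 in heart and 28.1, 32.5, 37.8 and 24.8 in blood (0.82 ± 0.21, adjusted p = 0.00344), and Hmgb2 fell by 0.33. In neutrophil-like cells 1 of 3 differed (23.4% of all genes), Kif23, at 145, 146, 145 and 134 in heart and 226, 218, 240 and 187 in blood (-0.63 ± 0.16, adjusted p = 0.011). In NK cell-like cells 0 of 5 differed (7.73% of all genes, 1 member had an unadjusted p under 0.05) and in nonclassical monocyte-like cells 0 of 4 (17% of all genes, 1 member). The count of 10 was 4 with DESeq2, 21 with no low-count filter, 16 with a common doublet threshold and 5 with the cycle genes kept in the clustering, and it lay between 5 and 14 when a mouse was left out, the lowest without stroke replicate 1.

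The other genes of the pathway were taken from 5 lists of 119 genes: further S phase genes, further G2/M genes, G1 regulators, inhibitors and quiescence genes, and chromatin and tubulin genes linked to proliferation. Between heart and blood sums of all cells 13 of 99 tested rose in heart and 3 fell, shares near the 10.4% and 4.87% of all genes. By list, 3 of 27 S phase genes rose and 0 fell, 1 of 29 G2/M genes rose and 1 fell, 2 of 15 G1 regulators rose and 1 fell, 5 of 13 inhibitors rose and 1 fell, and 2 of 15 chromatin and tubulin genes rose. Of the 5 with the smallest p, 3 were brakes on the cycle. Btg2, an antiproliferative gene that responds to stress, was at 966, 868, 1014 and 908 CPM in heart and 244, 194, 236 and 171 in blood (2.16 ± 0.14, adjusted p = 0.00137). Cdkn1a, which encodes the kinase inhibitor p21, was at 263, 390, 516 and 395 against 14.7, 28.5, 40.6 and 9.35 (4.23 ± 0.35, adjusted p = 0.00233). Cdkn2a, of the p16 locus, was at 8.31, 13.6, 12.9 and 12.4 against 0 to 0.558 in blood. The other two were the tubulin gene Tuba1c (1.55 ± 0.11) and Cdk6, the kinase partner of the D-type cyclins (1.94 ± 0.15).

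Btg2 rose in heart in all 6 classes, from 0.77 in B cell-like to 2.80 in dendritic cell-like cells on the log2 scale, and Cdkn1a in 4, at 3.69, 3.46, 3.89 and 3.19 in classical monocyte-like, dendritic cell-like, neutrophil-like and nonclassical monocyte-like cells. Btg1 rose in 5 classes and Tuba1c in 4. Of the 2 genes with most UMIs in each list, Slbp, which binds histone mRNA, rose in heart (0.52 ± 0.10, adjusted p = 0.0226), while Rfc2, Smc4, Cks2, Rb1, Ccnd2, Btg1, H2afz and Hmgb1 did not pass in the sums of all cells, with adjusted p between 0.152 and 0.832.

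Stroke and control marrow were compared in heart by the same test without a block. None of 35 tested members passed, where 3 of 12479 genes did (0.024%), and DESeq2 called 0 members as well. At an unadjusted p under 0.05 there were 13 members, all lower with stroke marrow, beside 8.24% of all genes, of which 550 genes or 4.41% were lower. The median member stood at -0.57 on the log2 scale, with 29 of 35 below 0, beside -0.01 and 51% of all genes. Much of this rested on 1 mouse: without control replicate 1 the median was -0.21 with 25 of 35 below 0, and without control replicate 2 it was -1.03, with 5 members called among 171 of 12988 genes (Birc5, Cdca8, Mki67, Rrm2 and Top2a, all lower). With no filter on low counts 10 were called, all lower, for which no share of all genes is given here. Control replicate 1 was also the library with 599 Ddx3y and 1 Xist UMIs, so its sex genes differed from those of the other libraries. Sex cannot be told apart from other traits of that mouse, and its part was not tested.

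Mcm4, a helicase subunit, had the smallest p. It was at 26.7 and 20.7 CPM in control and 12.6 and 13.6 in stroke hearts, without overlap (-0.85 ± 0.19, adjusted p = 0.554). Top2a was at 60 and 23.4 against 9.32 and 16.9, also without overlap but with a wide gap between the control mice (-1.66 ± 0.50, adjusted p = 0.567). Mki67 was at 48.3 and 24.1 against 17.2 and 18.3 (-1.01 ± 0.33, adjusted p = 0.567), Stmn1 at 70.1 and 57.9 against 47 and 46.6 (-0.45 ± 0.13, adjusted p = 0.567) and Birc5 at 19.6 and 5.94 against 4.05 and 5.02 (-1.45 ± 0.58, adjusted p = 0.604). None of these overlapped between the groups, and for each control replicate 1 was the highest heart, far above the other 3 for Mki67 and Birc5. The share of all genes without overlap is not given here, so lack of overlap between donor groups is only a description. Mcm3 was at 36.3 and 29.2 against 22 and 24.8 (adjusted p = 0.575), Mcm5 at 20.6 and 11.2 against 7.56 and 9.04 (adjusted p = 0.584) and Cdca8 at 20.3 and 8.67 against 6.48 and 5.36 (adjusted p = 0.573). Pcna, at 74.7 and 56.2 against 59.3 and 62.1, and Mcm6, at 34.6 and 21.4 against 21.2 and 19.8, overlapped between groups or nearly did (adjusted p = 0.885 and 0.668). Ccnb2 was at 5.84 and 5.46 against 6.35 and 5.36, Ube2c at 8.13 and 2.89 against 3.92 and 4.86, Bub1b at 9.91 and 3.05 against 3.78 and 4.19, and Cdc20 at 5.08 and 3.21 against 3.24 and 2.85. The genes above 0 included both G1 cyclins, Ccnd1 at 139 and 134 against 179 and 127 and Ccnd3 at 369 and 433 against 448 and 591 (log2 differences 0.16 ± 0.18 and 0.37 ± 0.18), with Kif23 at 26.2 and 21 against 28.8 and 31.6 (adjusted p = 0.626). Hmgb2 was at 321 and 294 against 272 and 276.

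The lists of other cycle genes lay on the same side and were not called: 28 of 28 tested S phase genes and 31 of 32 G2/M genes were below 0, with medians of -0.41 and -0.74, 0 called and 6 and 14 at an unadjusted p under 0.05, beside 51% of all genes below 0 and 8.24% at that p. Without control replicate 1 they were below 0 in 24 of 28 and 26 of 32, with medians of -0.14 and -0.36 and 1 and 4 at that p. Inhibitors and quiescence genes lay above 0 in 11 of 14, with a median of 0.12 and 0 called, and in 7 of 14 without control replicate 1. The largest inhibitors by UMIs were Btg1, with a mean of 543 CPM in control and 733 in stroke hearts (adjusted p = 0.638), and Btg2, with 919 and 940 (adjusted p = 0.964).

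**Figure D5:**
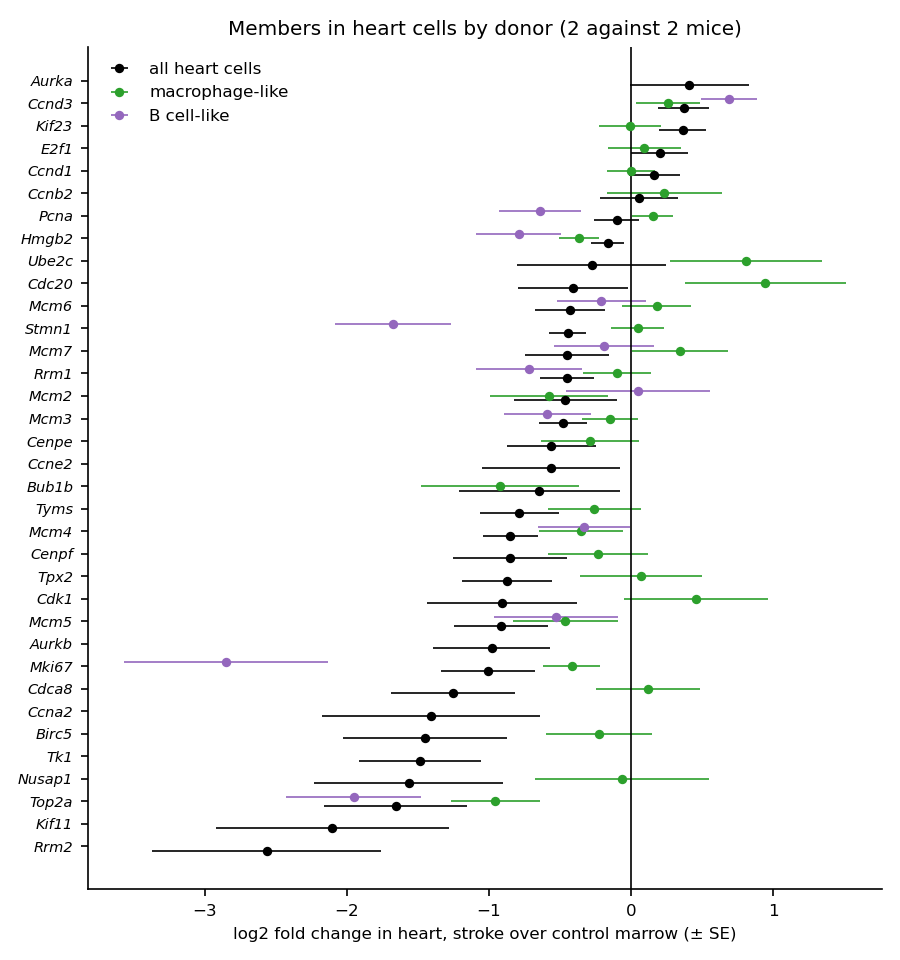
Log2 difference of each tested member between stroke and control marrow in heart (x axis, positive means higher with stroke marrow) for all heart cells (black), macrophage-like cells (green) and B cell-like cells (purple), with SE from fits of 2 against 2 mice. None of the points passed the adjusted threshold. Black points lie below 0 for 29 of 35 members, and Mki67 in B cell-like cells is lowest among the purple ones at -2.85. That Mki67 point rests mostly on UMIs of control replicate 1 and on few UMIs of the stroke mice.

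Within classes of the heart the members went different ways. In every comparison within a class, the share of all genes is that called at the adjusted threshold. No share of all genes at an unadjusted p is given there. Counts of members at an unadjusted p within a class are therefore not read as particular to the members. In macrophage-like cells the median of 28 tested members was -0.03, with 15 below 0 (0 called, 0% of 10455 genes called, 2 members at an unadjusted p under 0.05, both lower). Mki67 was at 31.6 and 28.8 CPM with control and 23.4 and 21.1 with stroke marrow, and Top2a at 24.8 and 15.6 against 8.59 and 11.3 (adjusted p = 0.9999 for both), while Pcna was at 62.4 and 66.1 against 67.4 and 76.5. In B cell-like cells the median of 13 was -0.59 (0 called, 0.054% of all genes called, and at an unadjusted p under 0.05 5 lower and 1 higher). The higher one was Ccnd3, at 230 and 272 CPM against 384 and 423, without overlap (0.69 ± 0.20, adjusted p = 0.565). There Mki67 was at 88.4 and 18.2 against 4.85 and 8.48 (-2.85 ± 0.72, adjusted p = 0.401), Top2a at 134 and 43.6 against 26.7 and 20.6 (-1.95 ± 0.48, adjusted p = 0.354) and Stmn1 at 131 and 51.7 against 31.6 and 26.7 (-1.67 ± 0.41, adjusted p = 0.354). In dendritic cell-like cells the same genes lay the other way, Mki67 at 49.4 and 23.1 against 80.1 and 103 (1.29 ± 0.43, adjusted p = 0.247), Top2a at 55.6 and 25.7 against 65.1 and 142 and Stmn1 at 49.4 and 92.3 against 180.3 and 123 (0 of 11 called, 0.437% of all genes called). The difference between these classes was not tested. Dendritic cell-like cells numbered 70 and 63 in control hearts and 27 and 32 in stroke hearts. Those with 3 or more core genes after thinning were 5 and 3 cells (7.35 and 4.92%) with control marrow. With stroke marrow they were 2 and 2 cells (7.41 and 6.9%). With B cell-like cells left out, the median over 33 members in all other heart cells was -0.36, with 26 below 0 and 0 called.

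The remaining heart classes had 0 called of 2 members tested in NK cell-like (0.635% of all genes called), 5 in classical monocyte-like (0%), 3 in neutrophil-like (0%) and 5 in nonclassical monocyte-like cells (0.0642%), and 0 of these had an unadjusted p under 0.05. DESeq2 called 0 members in any class of either organ. In blood, 0 were called of 11 in B cell-like, 7 in NK cell-like, 10 in classical monocyte-like, 7 in dendritic cell-like, 3 in neutrophil-like and 4 in nonclassical monocyte-like cells, where 0.0209% of genes were called in neutrophil-like cells and 0% in the other 5. At an unadjusted p under 0.05 stood Stmn1 in blood NK cell-like cells, at 155 and 104 CPM with control and 87.7 and 75.7 with stroke marrow, and Mcm7 and Ccnd3 in blood classical monocyte-like cells, at 4.51 and 5.67 against 9.99 and 16.7 and at 539 and 592 against 652 and 775 (adjusted p = 0.9993 for Stmn1 and 0.9998 for the others). The share of all genes at that unadjusted p is not given for these classes.

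In blood sums of all cells 0 of 31 members were called, as of all 11575 genes (0%), and DESeq2 called 0 members. The SE of the Kif23 difference was 0.75 in blood against 0.17 in heart, and a member that was not called is not shown to be alike in the donor groups. At an unadjusted p under 0.05 there were 2 (0.613% of all genes): Nusap1, at 2 and 2.78 CPM with control and 8.47 and 8.99 with stroke marrow (1.87 ± 0.42, adjusted p = 0.97), and Ccnd1, at 24.4 and 32.1 against 14.1 and 6.74 (-1.44 ± 0.45, adjusted p = 0.97). Neither overlapped between the groups, for which no share of all genes is given here. Mki67 was at 14.4 and 16.9 against 17.3 and 16 and Top2a at 10.2 and 14.4 against 18.2 and 20.5. The lowest blood values of Kif23 and Hmgb2 in stroke replicate 2, 9.97 and 173 against 41.7 to 52.3 and 508 to 633 in the other mice, came from the blood with 1000 B cell-like cells, whose part was not tested. Without stroke replicate 1, stroke replicate 2 is alone in its group, and the number of members called changed. The share of all genes called in that refit is not given here, so the change is not read as particular to the members.

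Whether the heart to blood distance itself differed between donor groups was tested as an interaction over the 8 sums. None of 35 members passed, nor did any of 13088 genes (0%), and DESeq2 called 0 members. At an unadjusted p under 0.05 there were 8 members (4.18% of all genes): Ccnd1 with a larger heart over blood ratio under stroke marrow (1.66 ± 0.33 on the log2 scale) and Top2a (-2.23 ± 0.68), Nusap1, Mcm4, Mcm7, Tyms, Rrm2 and Kif11 with a lower one, all at adjusted p = 0.744. For Top2a, Nusap1, Mcm4, Mcm7, Rrm2 and Kif11 the group means changed order: Mcm4 stood at 23.9 CPM in heart and 16 in blood with control marrow and at 13.2 and 19.3 with stroke marrow, and Nusap1 at 11.1 and 2.36 and then 3.72 and 8.62. Leaving out 1 mouse leaves a lone mouse in a group, and the number of members called then depended on the mouse left out. The share of all genes called in those refits is not given here, so their counts are not read as particular to the members. With B cell-like cells left out the median of 33 members was 0.17, against -0.77 over all cells, and 0 were called.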

How the data were processed

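The authors deposited UMI counts per gene and hashtag for 4 libraries joined in 1 matrix, made with Cell Ranger 7.1.0 on build mm10 per the submitters' processing notes and the file header. The annotation, the use of strand and any equalising of depth at joining are not given in the sources used here, so members that overlap a gene on the other strand (Mcm7, Tk1, Ccne2, Ccna2, Cdc20, Ccnd1, Ccnd3, Cdca8, Nusap1 and Ube2c) may share reads with it. The numbered barcode suffixes were matched to the sample numbers in the labels. Library totals were 10067873 to 16513840 gene UMIs. Intervals and limits cover counting error only.

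Organ was called from the hashtags (Seurat 5.3.0, HTODemux), 173 to 301 barcodes a library with both hashtags and 11 to 39 with neither were left out, and Scrublet calls were removed (0.1 to 6.15% of a library, with almost none in the stroke libraries). Cells under 200 genes or over 10% mitochondrial UMIs were dropped. Clusters (scanpy 1.11.5, 2000 variable genes, 30 components, Leiden resolution 1) were made without the members, the other cycle genes, sex genes and fluorescent transcripts, and were named from marker lists, with naming limits set after the data had been seen.

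UMIs were summed per mouse, organ and class (at least 20 cells per mouse), filtered with filterByExpr and tested with edgeR 4.0.16 (TMM, quasi-likelihood F test, Benjamini-Hochberg adjustment over all genes, threshold 0.05), with the mouse as a block between organs and no block between donor groups. The fits were first checked on simulated data, where the fit between donor groups in blood found almost none of the changes built in. DESeq2 1.42.0, other filters, doublet settings, hashtag calls, clusterings, blocks and leaving out each mouse were the alternatives.

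The members and the gene lists were chosen with earlier results of these data known. Named members were the 3 with most UMIs in each role (both of roles with 2), and any that was called. Named genes of the other lists were the 2 with most UMIs in each and up to 5 called by smallest p. Further genes named for their pattern (Rrm2, Nusap1, Mcm7, Bub1, Plk1, Cenpf and Tpx2 among them) were picked after their values were seen. Genes under 10 UMIs were given no fold.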

Additional observations from a re-analysis of the deposited data

Results flagged for a closer look

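Barcodes that carried both hashtags were left out of every comparison, and in 2 libraries they held more cells with at least 3 core genes after thinning than the limit that a count of 0 allows. In control replicate 2 the share was 3.429% (6 of 175 deep barcodes, limit 1.714%), and in stroke replicate 2 it was 1.46% (4 of 274, limit 1.095%). That limit is 3 barcodes of the total, so it asks only whether more than 3 barcodes qualified and makes no comparison with the kept cells. Kept cells of the same mice had shares of 1.75% in heart and 0.675% in blood (control replicate 2) and 1.61% and 1.14% (stroke replicate 2), the last pair on either side of the 1.46%. The other 2 libraries were not above their limits, at 1.829% (3 of 164) and 1.034% (3 of 290).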

How the results depend on the processing

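No member was called between donor groups in all heart cells, but 1 was with the crossed replicate block, 10 with no filter on low counts, and 0 to 5 with a mouse left out (5 without control replicate 2). In all blood cells 0 became 0 to 6 with a mouse left out, and for the interaction 0 to 15. Between organs 6 became 18 without B cell-like cells and 0 to 16 with a mouse left out. Within classes the donor count of 0 became 4 with the replicate block, 3 with the crossed pairing, 2 with no filter, 1 each with hashtag doublets alone removed and with the hashtag ratio, and 0 to 11 with a mouse left out. Within classes the organ count of 10 became 16 with 1 doublet threshold, 4 with DESeq2, 5 with the cycle lists kept in the clustering, 21 with no filter, and 5 to 14 with a mouse left out. The blood difference in the share of cells with 3 or more core genes turned to -0.244 percentage points with hashtag doublets alone removed. The cause of these changes was not tested. For these counts, here and above, the share of all genes called under the same setting is mostly not given. They are therefore not read as particular to the members.

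Mice share only a replicate number across groups, whose deviations correlated at -0.249 in heart and -0.251 in blood, and the replicate block left 0 members called in the sums of all cells of each organ. With the crossed pairing 43 of 12479 genes were called in heart and 0 in blood. For 29 results on single genes, of 345 values under an alternative 279 kept their side of the threshold, 51 lost it, 15 passed it and 0 changed direction. Leaving out 1 of 2 mice assumes that the lone mouse varies like the others. With 2 mice a group, a member that was not called is not shown to be alike in both groups, and at the depth of these cells members with under 10 UMIs in a comparison gave no value.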
